A study of Mus musculus with 6 samples.

Results

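Genes of extracellular proteolysis were followed in mouse dorsal root ganglia (DRGs): the matrix metalloproteinases (MMPs) *Mmp2*, *Mmp3*, *Mmp9*, *Mmp12*, *Mmp13*, *Mmp14*, and *Mmp19*, and the tissue inhibitors of metalloproteinases (TIMPs) *Timp1*, *Timp2*, and *Timp3*. They were taken by symbol as a fixed list of 10 of the 48440 rows of the count table, and all 10 passed the filter on low counts along with 18593 genes in all. The table held 16 other MMP genes. Total RNA was sequenced from 3 DRG libraries labelled AAV5-*Gfp* and 3 labelled AAV5-*NIS* V1 and V2, called AAV5-*V1+V2* here. All mice were male and WT, without a further allele, and all DRGs had been injected with adeno-associated virus of serotype 5: the controls with virus encoding green fluorescent protein, the others with mixed viruses encoding both variants of *NIS-lncRNA*, a long noncoding RNA that the study examined in neuropathic pain. The ganglia were the injected lumbar ones of 1 side. The study states 5 weeks for their collection and 4 weeks for the comparison. Age and the promoter in the virus were not given in the sources used here, and the level of the encoded RNA was not checked. The transcript and the virus preparation that carried it cannot be told apart in this design. Whether each library came from separate animals was not stated, so p-values measure the spread between these libraries, which may be technical.

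MMPs are zinc-dependent proteases that are made as inactive proenzymes, are switched on by removal of a propeptide, and cut matrix proteins, growth factors, cytokines, and receptors. TIMPs block the active site of MMPs, and TIMP3 also blocks several ADAM proteases. In the DRG, MMP9 and MMP2 are known from work on nerve injury, where MMP9 has been linked to the early phase and MMP2 to the late phase of neuropathic pain, and TIMP1 and TIMP2 to its relief. RNA levels do not measure the activated proteases.

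Total counts ranged from 32025612 to 34764282 per library. The neuronal identity of the tissue was clear from 12 sensory neuron markers, whose summed level was 8663–9206 CPM (read counts scaled to library size) in AAV5-*Gfp* libraries and 5451–7970 with AAV5-*V1+V2*. Among the AAV5-*V1+V2* libraries, replicate 1 stood apart: it held the lowest neuron sum and the highest macrophage sum (1417 CPM, against 738 and 510.7 in the other 2 libraries). All CPM values were scaled by the trimmed mean of M values (TMM). In bulk RNA, fewer cells of a type and less RNA per cell cannot be told apart.

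The proteases *Mmp12*, *Mmp19*, and *Mmp14*, were higher with AAV5-*V1+V2* than with AAV5-*Gfp*, by 6.38-, 1.87-, and 1.69-fold. No member was lower. A gene was called when its Benjamini-Hochberg adjusted p, taken over all 18593 genes in edgeR's quasi-likelihood test, was under 0.05. Thus 3 of 10 members (30%) were called higher, where 10.1% of all genes tested were called higher, and 0 of 10 were called lower, where 5.27% of all genes were. At an unadjusted p under 0.05 (edgeR) the members counted 7 higher and 0 lower, where all 18593 genes counted 3577 higher and 2878 lower. DESeq2 called 6 members higher and limma-voom 1, both with 0 lower. Over all genes, DESeq2 called 2405 higher and 1606 lower, and limma-voom 1421 and 842. The 7 and the 6 include *Mmp3*, which passed the filter on low counts only through the AAV5-*V1+V2* group. In 7 of the 10 members, *Mmp3* among them, every AAV5-*V1+V2* library lay above every AAV5-*Gfp* library, against 23.4% of all genes. None lay entirely below, against 22% of all genes. Such a separation gives an exact two-sided permutation p of 0.1, the smallest that 3 against 3 libraries allow. The median log2 fold change was 0.84 over the 10 members, 0.90 over the 7 proteases, and 0.07 over the 3 inhibitors, beside -0.000298 over all genes tested. The count of 3 changed in fits with 1 library fewer. No member was called when any AAV5-*Gfp* library or AAV5-*V1+V2* replicate 2 was left out. Without AAV5-*V1+V2* replicate 1, 2 were called, and without replicate 3, 5 were called, *Mmp3* among them. Over all genes, the higher calls fell from 1872 to 257, 12, and 15 without AAV5-*Gfp* replicate 1, 2, and 3. They were 1862, 1020, and 2474 without AAV5-*V1+V2* replicate 1, 2, and 3. The log2 fold changes in these 6 fits were 2.20 to 3.56 for *Mmp12*, 0.75 to 1.07 for *Mmp19*, and 0.51 to 0.94 for *Mmp14*.

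**Figure D1:**
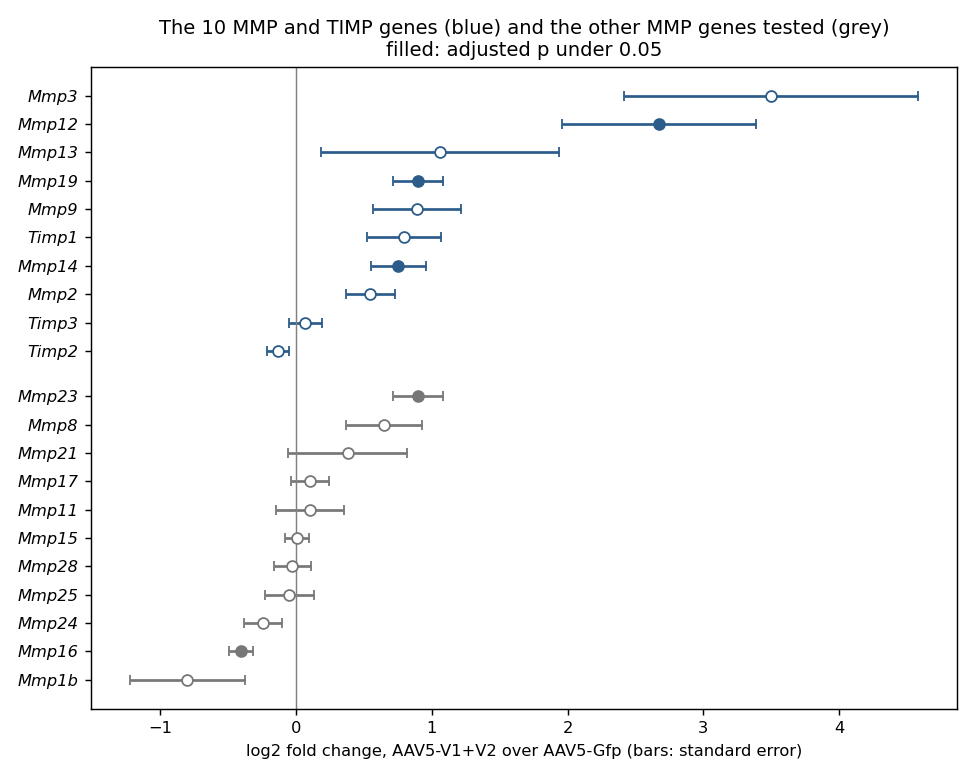
Log2 fold change of AAV5-*V1+V2* over AAV5-*Gfp* (x axis) for the 10 MMP and TIMP genes (blue) and the 11 other MMP genes tested (grey), with the standard error as bars and filled circles where the adjusted p was under 0.05. *Mmp3* (3.50) and *Mmp12* (2.67) lie farthest to the right with the widest bars of the blue group beside *Mmp13*, and *Timp2* (-0.13) is the only blue gene left of 0.

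Levels between genes were compared only as CPM per kilobase of exon. Of these 10 genes, the AAV5-*Gfp* ganglia held far more RNA of the 3 inhibitors than of the 7 proteases. Other MMP genes were not in this comparison. *Timp2*, whose protein inhibits MMPs and also assists MMP14 in activating MMP2, had the highest level of the 10, at 75.5 ± 1.12 CPM per kilobase (SD, n = 3). *Timp3*, which codes for the inhibitor that binds to the matrix, followed at 28.9 ± 1.98 CPM per kilobase. *Mmp2* was the most abundant of the 7 proteases, at 15.8 ± 2.47 CPM per kilobase, and *Mmp14* came next at 3.32 ± 0.324 CPM per kilobase. The ranges of these 4 genes overlapped neither with each other nor with the genes below them. Lower down, *Timp1* (2.10 ± 0.483), *Mmp9* (1.71 ± 0.296), *Mmp19* (1.45 ± 0.192), and *Mmp13* (1.02 ± 0.878) had overlapping ranges of CPM per kilobase from each gene to the next. *Mmp12* (0.202 ± 0.168) and *Mmp3* (0.164 ± 0.0978) came last and also overlapped. With AAV5-*V1+V2* the order of the means was the same except that *Mmp3*, at 1.88 CPM per kilobase, stood above *Mmp12*, at 1.31.

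**Figure D2:**
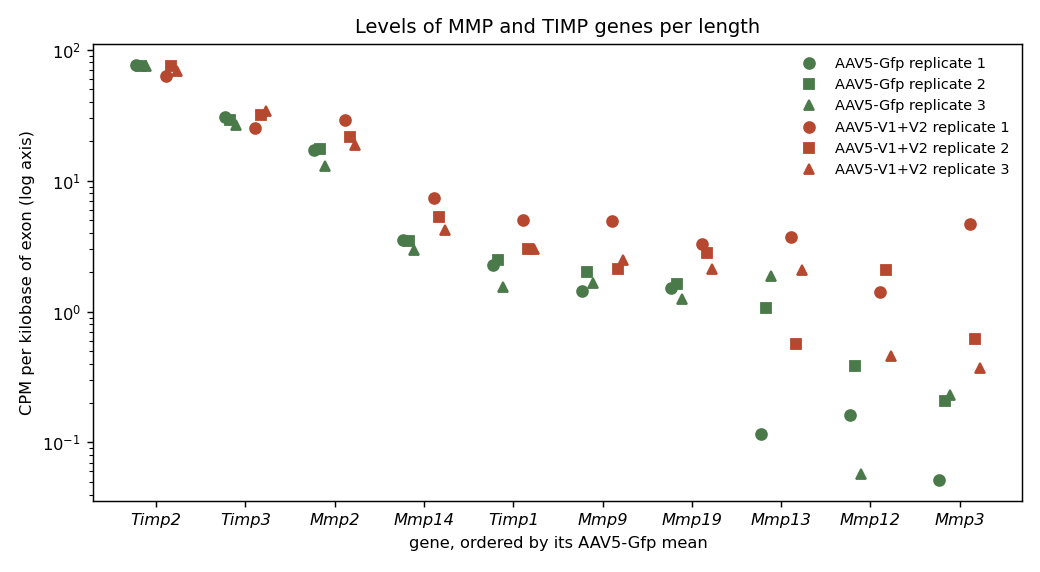
CPM per kilobase of exon on a log axis for each of the 10 genes, ordered by the AAV5-*Gfp* mean, with 1 point per library (green AAV5-*Gfp*, red AAV5-*V1+V2*, marker shape for the replicate). The levels of AAV5-*Gfp* libraries fall from a mean of 75.5 for *Timp2* to 0.164 for *Mmp3*, and the points of a group spread most in *Mmp13*, *Mmp12*, and *Mmp3*.

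The gelatinases *Mmp2* and *Mmp9*, which digest denatured collagen and basement membrane collagen, were separated between the groups but did not pass the test. *Mmp2* (chr8:92827291-92853420, plus strand, GRCm38) had 1850, 2027, and 1359 counts with AAV5-*Gfp* and 3213, 2403, and 2170 counts with AAV5-*V1+V2*. Its level was 53.1 ± 8.31 CPM against 77.7 ± 17.9 CPM (SD, n = 3), a log2 fold change of 0.55 with a standard error of 0.18 and an adjusted p of 0.0772 (edgeR). The highest AAV5-*Gfp* library (58.5 CPM) and the lowest AAV5-*V1+V2* library (63.3 CPM) lay close together. *Mmp9* (chr2:164940780-164955850, plus strand) had 164, 248, and 183 counts with AAV5-*Gfp* and 576, 247, and 298 counts with AAV5-*V1+V2*. In CPM it was 6.03 ± 1.05 against 11.2 ± 5.49, with a log2 fold change of 0.89, a standard error of 0.33, and an adjusted p of 0.102 (edgeR). AAV5-*V1+V2* replicate 1, at 17.5 CPM, carried most of that difference, since replicates 2 and 3, at 7.42 and 8.69 CPM, were near the highest control, at 7.16 CPM. Without that library the log2 fold change of *Mmp9* was 0.42 (adjusted p = 0.141, edgeR) and that of *Mmp2* was 0.35 (adjusted p = 0.125, edgeR). *Mmp2* passed in DESeq2 (adjusted p = 0.0203) and without AAV5-*V1+V2* replicate 3 (adjusted p = 0.0354, edgeR), and *Mmp9* passed in DESeq2 alone (adjusted p = 0.0311).

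*Mmp14* codes for the membrane-bound protease that activates proMMP2 at the cell surface. The AAV5-*Gfp* libraries had 681, 719, and 549 counts (chr14:54431612-54445364, plus strand), and the AAV5-*V1+V2* libraries 1454, 1039, and 858. All 3 AAV5-*V1+V2* libraries were above the controls, with replicate 1 highest at 44.2 CPM and replicate 3 lowest at 25.01 CPM, against 17.6–21.1 CPM in controls. *Mmp14* rose from 19.8 ± 1.93 to 33.5 ± 9.79 CPM, a log2 fold change of 0.76 with a standard error of 0.20 and an adjusted p of 0.0450 (edgeR). That p was close to the threshold, and the call was lost in limma-voom (adjusted p = 0.0590) and without each AAV5-*Gfp* library or AAV5-*V1+V2* replicate 2 (adjusted p from 0.0846 to 0.158, edgeR).

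*Mmp19* codes for a secreted MMP that cuts basement membrane components. It had 171, 198, and 137 counts with AAV5-*Gfp* and 378, 329, and 254 counts with AAV5-*V1+V2* (chr10:128790910-128800824, plus strand). The lowest AAV5-*V1+V2* library, at 7.40 CPM, was above the highest control, at 5.71 CPM. *Mmp19* rose from 5.13 ± 0.677 to 9.59 ± 2.06 CPM, a log2 fold change of 0.90 with a standard error of 0.19 and an adjusted p of 0.0254, the smallest of the 10 members (edgeR). It was called in 10 of 14 alternative fits and was the only member called by limma-voom (adjusted p = 0.0370). The 4 fits without a call left out an AAV5-*Gfp* library or AAV5-*V1+V2* replicate 2 (adjusted p from 0.0677 to 0.106, edgeR). Exons of *Mmp19* share 789 bases, 22.3% of its exon length, with *Tmem198b* on the opposite strand. The library kit keeps strand, but its use in counting was not given in the sources used here. *Tmem198b* was not called (log2 fold change 0.30, adjusted p = 0.145, edgeR).

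**Figure D3:**
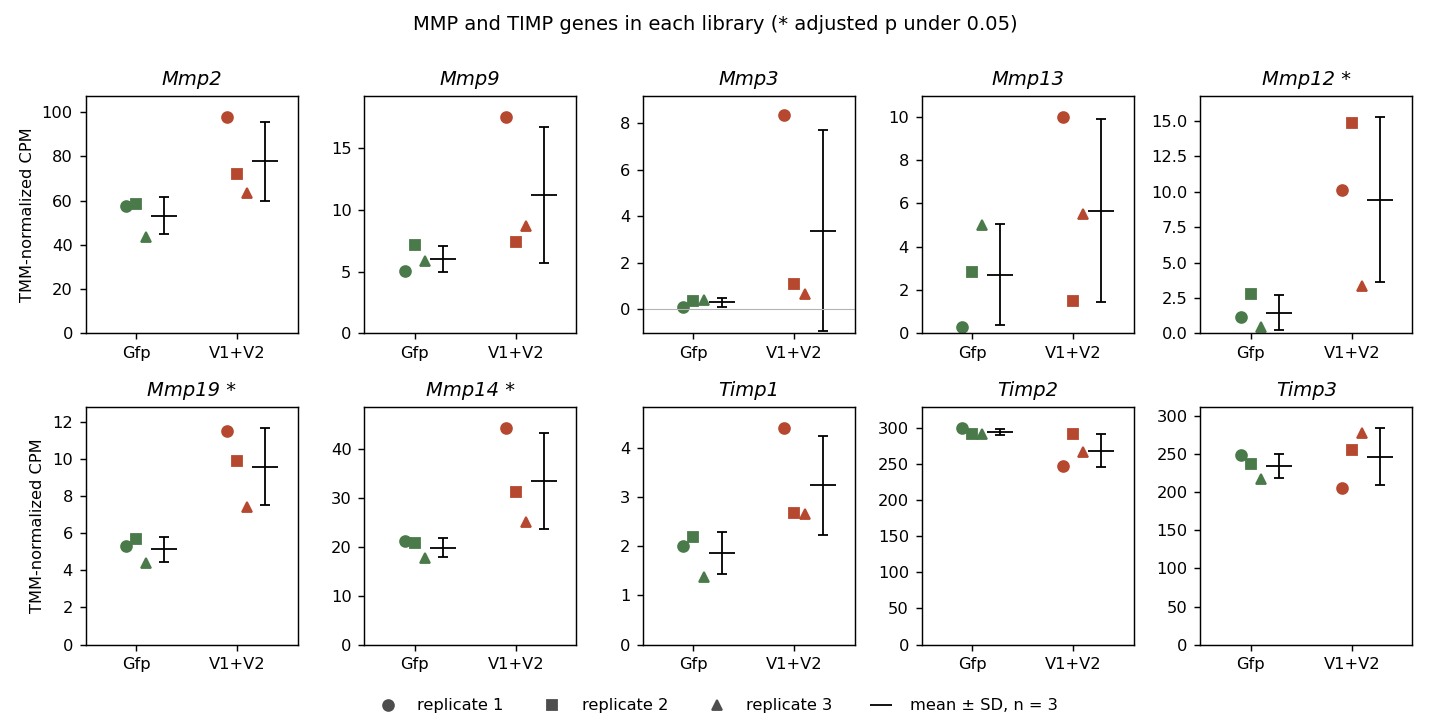
TMM-normalized CPM of each of the 10 genes in the 3 AAV5-*Gfp* (green) and 3 AAV5-*V1+V2* (red) libraries, with marker shapes for the replicates, black lines for the mean ± SD (n = 3), and an asterisk where the adjusted p was under 0.05. Points of the groups overlap in *Mmp13*, *Timp2*, and *Timp3* and in none of the other 7 genes, and AAV5-*V1+V2* replicate 1 is the highest point in 7 of 10 panels.

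*Mmp13*, *Mmp12*, and *Mmp3* belong to a cluster of 10 MMP genes on chromosome 9, whose first and last starts are 419.6 kb apart. Collagenase 3 (*Mmp13*) cuts fibrillar collagen, macrophage elastase (*Mmp12*) cuts elastin, and stromelysin 1 (*Mmp3*) cuts many matrix proteins and other proMMPs. Their RefSeq promoters (GRCm38.p6, 250 bases before to 50 after the start, all on the plus strand) are shown because the 3 genes are neighbours and each has a promoter with the AP-1 site that is known from collagenase and stromelysin genes. The regions are chr9:7445572-7445871 for *Mmp3*, chr9:7272264-7272563 for *Mmp13*, and chr9:7347124-7347423 for *Mmp12*, here the second of 2 promoters listed. Capitals mark the AP-1 letters TGAGTCA, which read TGACTCA where they lie on the other strand.
Mmp3: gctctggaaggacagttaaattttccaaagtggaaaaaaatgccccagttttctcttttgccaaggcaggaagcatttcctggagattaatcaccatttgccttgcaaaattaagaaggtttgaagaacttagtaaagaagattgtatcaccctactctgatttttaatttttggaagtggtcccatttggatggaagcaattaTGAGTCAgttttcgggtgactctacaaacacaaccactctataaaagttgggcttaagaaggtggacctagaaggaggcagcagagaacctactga
Mmp13: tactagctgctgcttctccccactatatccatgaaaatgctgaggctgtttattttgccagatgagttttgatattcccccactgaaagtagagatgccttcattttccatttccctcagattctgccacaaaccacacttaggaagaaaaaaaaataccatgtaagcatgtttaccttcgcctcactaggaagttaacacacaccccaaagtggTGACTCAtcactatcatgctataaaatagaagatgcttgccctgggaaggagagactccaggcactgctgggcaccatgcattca
Mmp12: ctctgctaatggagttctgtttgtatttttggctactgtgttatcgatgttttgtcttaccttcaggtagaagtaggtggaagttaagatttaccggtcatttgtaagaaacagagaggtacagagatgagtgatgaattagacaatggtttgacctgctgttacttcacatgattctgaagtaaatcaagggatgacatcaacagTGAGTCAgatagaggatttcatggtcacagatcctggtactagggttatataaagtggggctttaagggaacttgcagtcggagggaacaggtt

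The AP-1 letters began 46 bases before the start in *Mmp3*, 35 before in *Mmp13*, and 44 before in *Mmp12*. All 3 promoters also held the TATA box letters TATAAA on the gene strand. These letters began 7 bases before the listed start in *Mmp3*, 16 before in *Mmp13*, and 4 after it in *Mmp12*. Searched on both strands, TGAGTCA was in 5.20% of the 32851 RefSeq promoters, and TGAGTCA together with TATAAA was in 0.624%. The first *Mmp12* promoter (chr9:7344147-7344446) had no such match, nor had the promoters of *Mmp14*, *Timp1*, *Timp2*, and *Timp3*. The ETS core letters AGGAAG, searched on both strands and present in 35.4% of all promoters, occurred once each in *Mmp3*, *Mmp14*, *Timp3*, and the first *Mmp12* promoter. They occurred at 2 places in *Mmp13* and at 3 in *Timp1*, and not in the *Timp2* promoter or the *Mmp12* promoter shown above. These matches describe letters only. *Mmp2*, *Mmp9*, and *Mmp19* had no entry in the promoter table. In the cluster as a whole, 7 of 10 genes had a promoter with the AP-1 letters, among them *Mmp7*, *Mmp10*, and *Mmp1a*, which had at most 3 counts in every library.

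*Mmp12* had 38, 97, and 13 counts with AAV5-*Gfp* and 334, 496, and 114 counts with AAV5-*V1+V2* (chr9:7344381-7369499). The control libraries alone spanned 0.417–2.80 CPM, and the AAV5-*V1+V2* libraries 3.32–14.9 CPM, with replicate 2 highest and replicate 3 just above the highest control. *Mmp12* rose from 1.46 ± 1.22 to 9.46 ± 5.82 CPM, a log2 fold change of 2.67 with a standard error of 0.71 and an adjusted p of 0.0461 (edgeR). The call was lost in limma-voom (adjusted p = 0.0802) and in 5 of the 6 fits that left out a library, the exception being the one without AAV5-*V1+V2* replicate 3. In all 6 of these fits the log2 fold change stayed between 2.20 and 3.56.

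*Mmp3* had 3, 13, and 13 counts with AAV5-*Gfp* and 275, 37, and 23 counts with AAV5-*V1+V2* (chr9:7445822-7455975). With the minimum count reached in only 2 of the 3 controls, it passed the filter on low counts through the AAV5-*V1+V2* group. The groups did not overlap, but AAV5-*V1+V2* replicate 1, at 8.36 CPM, stood far above replicates 2 and 3, at 1.11 and 0.671 CPM. The log2 fold change of 3.50 had a standard error of 1.08 and an adjusted p of 0.0673 (edgeR), and it was 1.58 without that library (adjusted p = 0.0875, edgeR). *Mmp3* passed in 3 of its alternative fits: DESeq2 (adjusted p = 0.0200), edgeR without a filter on low counts (adjusted p = 0.0376), and edgeR without AAV5-*V1+V2* replicate 3 (adjusted p = 0.0245).

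*Mmp13* had 10, 98, and 156 counts with AAV5-*Gfp* and 328, 50, and 189 counts with AAV5-*V1+V2* (chr9:7272514-7283331). Like *Mmp3*, it reached the minimum count in only 2 of the 3 controls and passed the filter through the AAV5-*V1+V2* group. Its control values were widely scattered, from 0.310 to 5.00 CPM, and the groups overlapped. The means were 2.71 ± 2.35 and 5.66 ± 4.24 CPM (exact permutation p = 0.4, two-sided; log2 fold change 1.06 ± 0.87 SE, adjusted p = 0.419 in edgeR). Thus the 3 neighbours, although alike in their promoter letters, had different per-library orders: *Mmp3* and *Mmp13* were highest in AAV5-*V1+V2* replicate 1, *Mmp12* was highest in replicate 2, and replicate 2 was the lowest of its group for *Mmp13*. Of the other cluster genes, *Mmp8*, the neutrophil collagenase, had 190, 190, and 220 counts in AAV5-*Gfp* libraries and 470, 231, and 264 with AAV5-*V1+V2* (log2 fold change 0.65, adjusted p = 0.144, edgeR). *Mmp1b*, which lies between *Mmp12* and *Mmp3* and shares 157 exon bases with *Mmp12* on the opposite strand, had 36, 19, and 26 counts against 11, 11, and 26 counts (log2 fold change -0.80, adjusted p = 0.220, edgeR).

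None of the 3 inhibitors was called in either direction. *Timp1*, the inducible TIMP, had 65, 76, and 43 counts with AAV5-*Gfp* and 145, 89, and 91 counts with AAV5-*V1+V2* (chrX:20870166-20874735, plus strand). Every AAV5-*V1+V2* library was above the controls, and replicate 1 was the highest at 4.41 CPM. The means were 1.86 ± 0.428 and 3.24 ± 1.01 CPM, with a log2 fold change of 0.80, a standard error of 0.27, and an adjusted p of 0.0879 (edgeR), and *Timp1* was called in 0 of 14 alternative fits. *Timp1* lies within *Syn1*, a gene of synaptic vesicles on the opposite strand, without shared exon bases. *Syn1* fell by 0.69 on the log2 scale (adjusted p = 0.0162, edgeR).

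*Timp2* had 9657, 10095, and 9114 counts with AAV5-*Gfp* and 8132, 9711, and 9153 counts with AAV5-*V1+V2* (chr11:118301069-118355740, minus strand). The controls were tight, at 294 ± 4.36 CPM, and AAV5-*V1+V2* replicate 1 was the lowest library at 247 CPM, while replicate 2 reached 292 CPM within the control range. The log2 fold change was -0.13 with a standard error of 0.08 and an adjusted p of 0.296 (edgeR). *Timp3* had 8053, 8243, and 6792 counts with AAV5-*Gfp* and 6767, 8538, and 9556 counts with AAV5-*V1+V2* (chr10:86300372-86349506, plus strand). Its AAV5-*V1+V2* libraries lay on both sides of the controls, from 206 to 279 CPM against 218 to 249.5 CPM. The log2 fold change was 0.07 with a standard error of 0.12 and an adjusted p of 0.702 (edgeR). *Timp3* lies within *Syn3*, a further synapsin gene on the opposite strand, and 21.3% of its exon length is shared with exons of *Syn3*, which fell by 0.51 on the log2 scale (adjusted p = 0.0156, edgeR). The part of these overlaps in the *Timp1* and *Timp3* counts was not tested.

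Summed per kilobase, the 7 proteases had 23.8, 26.1, and 20.9 CPM per kilobase in AAV5-*Gfp* libraries and 54.4, 34.8, and 30.4 with AAV5-*V1+V2*. The 3 inhibitors had 109.7, 106.5, and 103.2 CPM per kilobase in AAV5-*Gfp* libraries and 93.7, 109.4, and 105.7 with AAV5-*V1+V2*. Protease sums did not overlap between the groups, and inhibitor sums did. The sum of these 3 inhibitors exceeded that of these 7 proteases in every library, 4.08- to 4.93-fold with AAV5-*Gfp* and 1.72- to 3.48-fold with AAV5-*V1+V2*. Other MMP genes were not in these sums. Of the protease sum, *Mmp2* made up 61.7–71.4% in controls and 53.3–61.7% with AAV5-*V1+V2*, and *Mmp14* 13.3–14.9% and 13.6–15.1%. Of the inhibitor sum, *Timp1* made up 1.503–2.32% and 2.75–5.30%. These sums over members are given as descriptions without a test.

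For a protease and its inhibitor, the log2 ratio of *Mmp9* to *Timp1* per kilobase was -0.66, -0.29, and 0.09 in AAV5-*Gfp* libraries. With AAV5-*V1+V2* it was -0.0047, -0.52, and -0.28. The ratios overlapped, with means of -0.28 ± 0.377 and -0.27 ± 0.259 (SD, n = 3). The log2 ratio of *Mmp2* to *Timp2* per kilobase was -2.27 ± 0.23 in controls and -1.60 ± 0.41 with AAV5-*V1+V2*, and that of *Mmp14* to *Timp2* was -4.51 ± 0.14 and -3.65 ± 0.49. Neither of these latter ratios overlapped between the groups.

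Of the 16 other MMP genes, 11 were tested, with a median log2 fold change of 0.00937. *Mmp23* rose, from 63, 60, and 43 counts to 115, 98, and 103 counts (log2 fold change 0.90, adjusted p = 0.0246, edgeR). *Mmp16*, a membrane-bound MMP, fell from 1345, 1514, and 1557 counts to 1057, 1168, and 1201 counts (log2 fold change -0.40, adjusted p = 0.0278, edgeR). Both calls were lost when any single AAV5-*Gfp* library was left out, and without AAV5-*V1+V2* replicate 2. Of 23 MMP genes in the table, members included, 18 were tested. Of these, 4 (22.2%) were called higher and 1 (5.56%) was called lower, beside 10.1% and 5.27% of all genes.

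Proteins that activate MMPs were represented by 17 genes of the plasminogen and convertase systems, of which 14 were tested and 0 were called in edgeR (median log2 fold change 0.22). *Plaur*, the urokinase receptor, had a log2 fold change of 1.02 (adjusted p = 0.0585, edgeR), *Furin*, the convertase that activates proMMP14, had 0.61 (adjusted p = 0.0620, edgeR), and *Pcsk5*, a related convertase, had -0.28 (adjusted p = 0.0883, edgeR). Of 8 tested genes for other inhibitors and for clearance, 1 (12.5%) was higher and 2 (25%) were lower, beside 10.1% and 5.27% of all genes. The higher call was *Tfpi2*, a protease inhibitor with 5–6 counts per control library and 11–17 with AAV5-*V1+V2* (log2 fold change 1.35, adjusted p = 0.0383, edgeR). It passed the filter on low counts only through the AAV5-*V1+V2* group and was called in 5 of 13 alternative fits. The proteoglycans *Spock3* and *Spock1* fell by 0.63 and 0.78 on the log2 scale (adjusted p = 0.0278 and 0.0296, edgeR). *Lrp1*, the receptor that clears MMPs, had a log2 fold change of 0.18 (adjusted p = 0.201, edgeR). Of 17 related ADAM and ADAMTS genes tested, 2 (11.8%) rose, beside 10.1% of all genes, and 2 (11.8%) fell, beside 5.27%. *Adam17*, which sheds tumor necrosis factor, rose by 0.61 (adjusted p = 0.0378, edgeR) and *Adam8*, a protease of leukocytes, by 0.84 (adjusted p = 0.0414, edgeR), while *Adam23*, a neuronal ADAM without protease activity, fell by 0.69 (adjusted p = 0.0189, edgeR) and *Adamts9* fell by 0.31 (adjusted p = 0.0363, edgeR). When any single AAV5-*Gfp* library was left out, 0 genes of the inhibitor and ADAM lists were called in either direction.

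Substrates were described in a matrix list and a signalling list. Of 22 matrix genes, 8 (36.4%) were called higher and 0 lower, beside 10.1% and 5.27% of all genes. Their median log2 fold change was 0.27. The smallest adjusted p, though not the largest changes, were those of *Col3a1* (log2 fold change 0.90, adjusted p = 0.0146, edgeR), *Eln*, the elastin gene (0.67, adjusted p = 0.0167), *Bgn* (0.62, adjusted p = 0.0186), and *Col4a1* of the basement membrane (0.36, adjusted p = 0.0341). Of 14 genes for cytokines, chemokines, and growth factors that MMPs can cut, 7 (50%) were called higher and 1 (7.14%) lower, beside the same shares of all genes. Of these 7, *Tnf* and *Fasl* passed the filter on low counts only through the AAV5-*V1+V2* group. *Tnf* had 12, 9, and 11 counts in AAV5-*Gfp* libraries and 150, 66, and 57 with AAV5-*V1+V2* (log2 fold change 3.05, adjusted p = 0.0144, edgeR). *Il1b*, whose proprotein MMP9 can cut, had 18, 25, and 27 against 363, 179, and 52 counts (log2 fold change 3.06, adjusted p = 0.0296, edgeR). *Fasl* had 3, 3, and 10 against 69, 31, and 22 counts (log2 fold change 2.87, adjusted p = 0.0302, edgeR). *Tgfb1* rose by 1.54 (adjusted p = 0.0278) and *Ccl2*, the monocyte chemokine the study followed, by 1.79 (adjusted p = 0.0470), both on the log2 scale in edgeR. Substrates called higher numbered 0 in both lists when any single AAV5-*Gfp* library was left out, and 3 in each without AAV5-*V1+V2* replicate 2.

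Markers of the cell types that a ganglion can hold were set beside these values, with sums given for AAV5-*Gfp* first. The genes said to lead a list have its smallest adjusted p. Their log2 fold changes, given in brackets, need not be its largest. Of all genes tested, 10.1% were called higher. Of 10 macrophage markers, 8 were called higher (median log2 fold change 1.59), led by *C1qa* (1.93) and *Aif1* (1.66), with sums of 182–252 and 511–1417 CPM. Fibroblast and meningeal markers were called higher in 4 of 10 (median 0.56), led by *Mgp* (0.68) and *Col3a1* (0.90), with sums of 1286–1669 and 2007–2969 CPM. Neutrophil markers, of which *Mmp8* is one, were called higher in 1 of 10 (median 0.81), beside 10.1% of all genes. That marker was *Camp* (0.92, adjusted p = 0.0485, edgeR), followed by *S100a8* (0.84, adjusted p = 0.0541, edgeR), and the sums were 113–129 and 155–309.1 CPM. In 7 of these 10 markers every AAV5-*V1+V2* library lay above every AAV5-*Gfp* library, against 23.4% of all genes. All 8 B and plasma cell markers were called higher, led by *Jchain* (6.41) and *Ms4a1* (5.49), with sums of 52.9–63.4 and 309–450.2 CPM. Of 7 T and NK cell markers tested, 6 were called higher, led by *Cd5* (3.19) and *Cd4* (3.33), with sums of 2.51–7.47 and 29.1–63.8 CPM. Only through the AAV5-*V1+V2* group did 2 of the B and plasma cell markers (*Ms4a1* among them) and 4 of these 6 T and NK cell markers pass the filter on low counts.

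Glial, vascular, and muscle markers overlapped between the groups in their sums. Higher calls made up 12.5% of satellite glia and 11.1% of endothelial and mural markers, near the 10.1% of all genes. Lower calls made up 8.33% of sensory neuron markers, beside 5.27% of all genes. Schwann cell markers were called in 0 of 9, *Egr2* having a log2 fold change of 0.25, at 3593–4351 and 3805–4206 CPM. Satellite glia markers were called higher in 1 of 8, *Slc1a3* (0.35), with *Kcnj3* next (-0.69, adjusted p = 0.0533, edgeR), at 2455–2819 and 2405–2715 CPM. Endothelial and mural markers were called higher in 1 of 9, *Pecam1* (0.88), with *Tek* next (-0.22, adjusted p = 0.101, edgeR), at 295–316 and 311–359 CPM. Skeletal muscle markers, at 23.7–381 and 9.10–112 CPM, were called in 0 of 6, with *Tnnt3* (-1.67) and *Myh1* (-1.38) nearest. Sensory neuron markers were called lower in 1 of 12 (median -0.41), that being *Rbfox3* (-0.93), with *Scn9a* next (-0.56, adjusted p = 0.0523, edgeR). These counts also changed in fits with 1 library fewer, as did the calls over all genes. Without AAV5-*Gfp* replicate 1, 2, and 3 in turn, the macrophage count was 2, 0, and 0, the fibroblast and meningeal count 0 each time, the B and plasma cell count 8, 1, and 1, and the T and NK cell count 6, 0, and 0. Neuron markers called lower numbered 6 without AAV5-*V1+V2* replicate 1 and 5 without replicate 3. The other single calls of *Camp*, *Slc1a3*, *Pecam1*, and *Rbfox3* were lost when any single AAV5-*Gfp* library was left out. No marker on any list was at 3 counts or fewer in all libraries. The part of these cell types in the MMP values was not tested.

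Deviations of members were taken on log2(CPM + 0.5), which shrinks those of genes with few reads, and marker sums were taken without the added 0.5. Across the AAV5-*V1+V2* libraries, *Mmp19* deviated from the AAV5-*Gfp* mean by 1.097, 0.89, and 0.50 log2 units in replicates 1, 2, and 3, and *Mmp14* by 1.14, 0.65, and 0.33. *Mmp12* had another order, with 2.63, 3.16, and 1.15. Of the 9 marker sums that were plotted by library, those of macrophages (2.64, 1.70, and 1.17), fibroblasts and meninges (0.98, 0.58, and 0.41), B and plasma cells (2.99, 2.56, and 2.45), T and NK cells (3.90, 3.03, and 2.76), and endothelium and mural cells (0.24, 0.07, and 0.03) were likewise highest in replicate 1 and lowest in replicate 3, and the neuron sum was lowest in replicate 1 (-0.72, -0.23, and -0.18). Counted over the 10 members, replicate 1 was the highest library of its group in 7 and the lowest in 2, and replicate 3 was the highest in 1 and the lowest in 6.

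**Figure D4:**
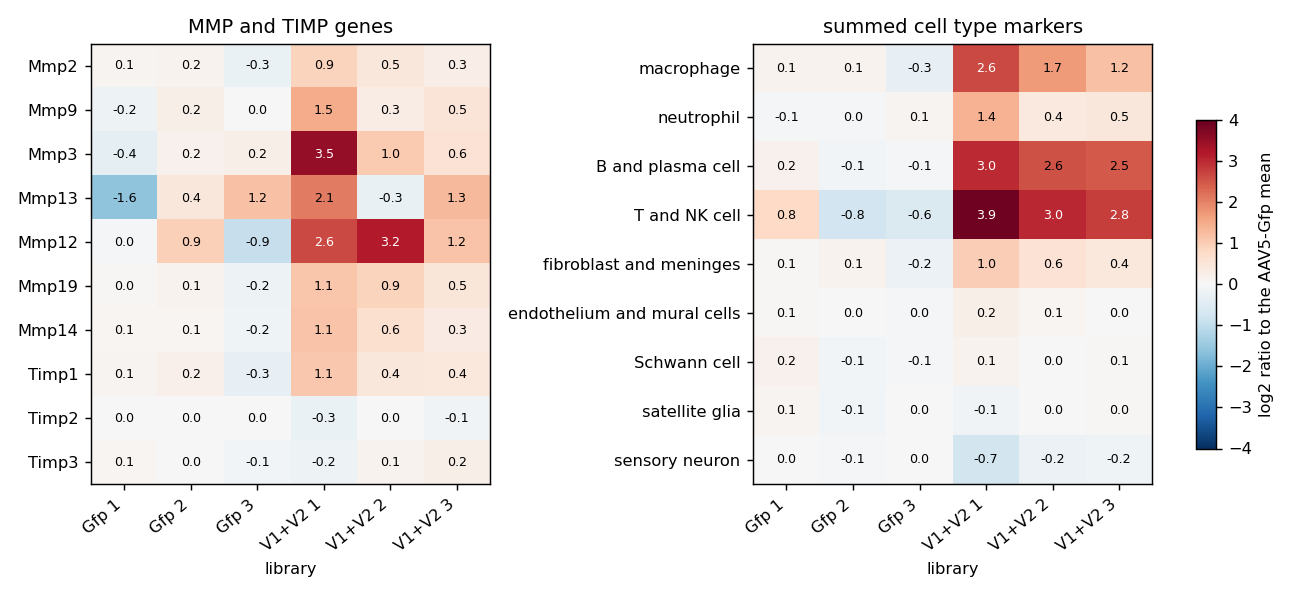
Log2 ratio of each library to the AAV5-*Gfp* mean for the 10 MMP and TIMP genes (left) and for the summed CPM of 9 cell type marker lists (right), with 1 column per library and a shared color scale from blue (lower) to red (higher). The left panel shows log2(CPM + 0.5) less its AAV5-*Gfp* mean, which shrinks the ratios of genes with few reads. The right panel has no added 0.5, so values are not directly comparable between the panels. The left panel is reddest for *Mmp3* in AAV5-*V1+V2* replicate 1 (3.50) and *Mmp12* in replicate 2 (3.16), and the right panel for T and NK cell markers in replicate 1 (3.90).

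Genes whose centred log2 CPM profile over the 6 libraries was nearest to a called member were sought among 14563 genes, by the root mean square difference. For *Mmp12* these were *Gpnmb* (0.543 log2 units), *Atp6v0d2* (0.555), and *Itgax* (0.704), for *Mmp19* *Maff* (0.0493), *Rmrp* (0.0690), and *Thbs2* (0.0727), and for *Mmp14* *Il4ra* (0.0216), *Tex14* (0.0593), and *Rnf149* (0.0604). The nearest gene to *Mmp12* was thus farther off than those of *Mmp19* and *Mmp14*. *Gpnmb*, *Atp6v0d2*, and *Itgax* are known as genes of macrophages, osteoclasts, and dendritic cells.

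**Figure D5:**
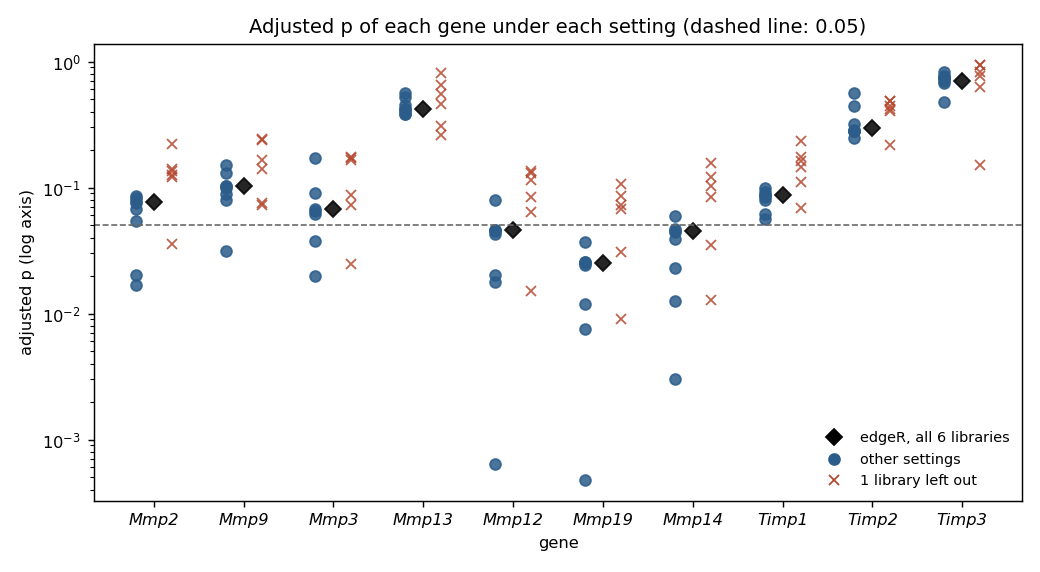
Adjusted p (log axis) of each of the 10 genes with all 6 libraries in edgeR (black diamonds), under other normalizations, filters, tests, and the replicate block (blue circles), and with 1 library left out (red crosses), with a dashed line at 0.05. Crosses of *Mmp12*, *Mmp19*, and *Mmp14* fall on both sides of the line, and those of *Timp1*, *Timp2*, *Timp3*, *Mmp13*, and *Mmp9* all lie above it.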

How the data were processed

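Total RNA libraries were made with a stranded kit from DRGs of 6 samples, and the authors deposited whole-number read counts per gene in 1 table, which was used as deposited. The aligner, the annotation, and the use of strand in counting were not given in the sources used here. The submitters' processing notes name the builds GRCm38 and mm10. Total counts ranged from 32025612 to 34764282, so counting error was small except for genes with few reads, and 3 counts or fewer were treated as a floor.

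The test was edgeR's quasi-likelihood F test (edgeR 4.0.16 in R 4.3.3; glmQLFit, glmQLFTest) with the group as its only term. It followed filterByExpr (minimum count 10) and TMM scaling. A Benjamini-Hochberg adjusted p under 0.05 was called. Standard errors were derived as |log2 fold change| / sqrt(F). Single values were compared with exact two-sided permutation tests on log2(CPM + 0.5). The calculations were tested on simulated data. Exon lengths and positions came from GENCODE M21 and promoters from RefSeq (GRCm38.p6).

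Alternatives were other scalings, no filter or CPM of at least 1 in 3 libraries, DESeq2 1.42.0, limma-voom (limma 3.58.1), the replicate number as a block, and leaving out each library. The genes, lists, and tests were chosen with earlier results of these data known. Named genes were all members, *Ccl2*, up to 4 genes of each pathway list and 2 of each marker list with the smallest adjusted p, and 3 nearest profiles of each called member above a mean log2 CPM of 1. Some genes that this rule would name are not reported here. Further genes (overlapping genes and cluster neighbours) were named after their values were seen, and the alternatives for genes outside the 10 were added after seeing the data.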

Additional observations from a re-analysis of the deposited data

How the results depend on the processing

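Of 139 values of single members under alternatives, 116 kept their direction and side of the threshold, 7 newly passed, 15 no longer passed, and 1 reversed: the log2 fold change of *Timp3* was -0.015 without AAV5-*V1+V2* replicate 3, with a range of -0.02 to 0.19 when 1 library was left out. The number of members called higher was 3 under every other scaling and the stricter filter (which left *Mmp3* untested), 4 without a filter, 6 in DESeq2, 1 in limma-voom, and 0 to 5 when 1 library was left out. The numbers of all genes called higher and lower were 12 to 2474 and 0 to 1446 when 1 library was left out, against 1872 and 980 with all. Without AAV5-*Gfp* replicate 1, 2, and 3 they were 257 and 59, 12 and 0, and 15 and 0, and without AAV5-*V1+V2* replicate 2 they were 1020 and 150. These fits have fewer samples. DESeq2 called 1606 genes lower. The cause of the differences between tools was not tested. Ordered by CPM in place of CPM per kilobase, 6 of 10 members kept their rank. The log2 ratio of *Mmp9* to *Timp1* differed between the groups by 0.01, and by -0.17 to 0.20 when 1 library was left out.

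With the replicate number as a block, 4 members were called higher, *Mmp2* being the fourth, beside 2118 genes higher and 1341 lower in all. The deviations of same-numbered libraries correlated by 0.036, 0.0658, and 0.107. AAV5-*V1+V2* replicates 2 and 3 correlated best with the AAV5-*Gfp* library of the same number, but replicate 1 with AAV5-*Gfp* replicate 2 (0.0433). The other differently numbered libraries correlated by -0.104 to -0.00963. All these values were small and do not settle whether the libraries are paired, and the numbers were not taken to pair them. Depth limits *Mmp3*, with 3 to 13 counts per control library.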
